A study of Homo sapiens with 3 samples.

Results

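The comparison described here set H128 cells transfected with the siRNA labelled siERRG2 against H128 cells transfected with the control siRNA, labelled siCont. These were 2 of the 3 samples of the series, and they were taken because their labels name them. The third sample, siERRG3, received another siRNA against the same gene and served as a check. H128 is an established human small cell lung cancer (SCLC) line that grows in suspension, and all 3 samples were harvested 48 h after transfection with no other treatment. There was 1 library per condition, so no difference below has a replicate check, and no p-value is given. The labels do not say which siRNA sequence siERRG2 carried, nor whether the 3 samples came from separate cultures or from the same day. The values of siERRG2 and siERRG3 were each divided by the same siCont library, so an error in siCont would move both in the same direction.

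ERRγ, the product of ESRRG, is an orphan nuclear receptor that binds DNA without a known natural ligand and recruits the coactivators PGC-1α and PGC-1β. It is best known for switching on mitochondrial and fuel-burning genes in heart, muscle and brown fat, through a short DNA element of sequence TCAAGGTCA. SCLC is a high-grade neuroendocrine tumour whose cells make dense-core secretory granules and carry neuronal adhesion molecules, ion channels and transcription factors.

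Estimated counts are given below in the order siCont, siERRG2 and siERRG3. ESRRG, the gene the siRNA targets, had 806, 211 and 230. Both ESRRG libraries lay far below the control. The log2 fold change in siERRG2 was -1.94, and the exact binomial 95% interval of the ratio of scaled counts, which covers counting error alone, was 0.221 to 0.302. The gene lies on GRCh38 chromosome 1 from 216503246 to 217137755. Its relatives were not lower. ESRRA, the widely expressed member of the family, had 1184, 1270 and 1169 counts (log2 fold change 0.08 in siERRG2). ESRRB had 4, 2 and 3 counts and was not analysed further.

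The libraries held 19861937, 19900580 and 20016780 estimated counts, and 14031 of 17448 genes reached 10 counts in some library and were kept. A gene is called lower or higher here when its scaled count differed by at least 1.2-fold, the size the study's methods used, and the 95% counting interval of the ratio did not include 1. In siERRG2 1796 genes were called lower, 12.8% of those that passed, and 1428 were called higher, 10.2%. The corresponding shares in siERRG3 were 19.9% and 17.1%. Of the 8 neuroendocrine markers of SCLC examined, all passed the count filter in these cells, with INSM1 (10359 counts in siCont) among them.

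Most differences were small. The median log2 fold change over all genes was -0.00038, and the middle 90% of genes lay between -0.69 and 0.54. The genes called lower had a median absolute log2 fold change of 0.48 and those called higher 0.40. A difference of 2-fold or more was reached by 270 genes on the lower side and 131 on the higher side. Lower calls also weighed more in total: the differences of siERRG2 minus siCont in counts scaled to library size (CPM) summed to -30664 over the genes called lower and to 17017 over those called higher.

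**Figure D1:**
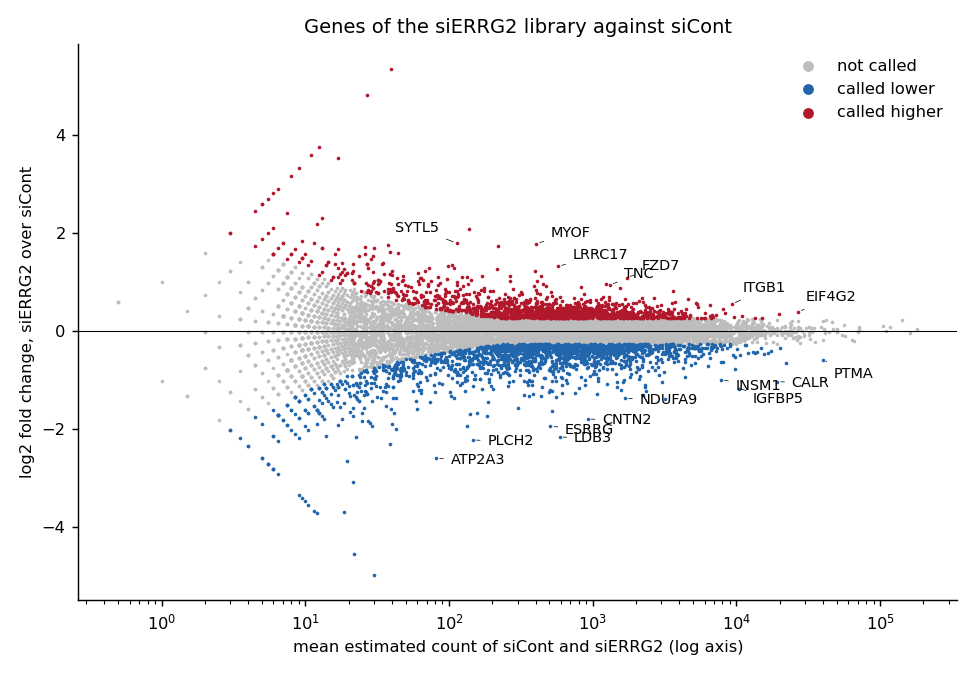
Each point is a gene that passed the count filter, at its mean estimated count in siCont and siERRG2 (log axis) and its log2 fold change in siERRG2 over siCont; blue points were called lower, red points higher and grey points neither. ESRRG sits at -1.94, in the small group of well-counted genes near or below -2 with ATP2A3, PLCH2 and LDB3, while SYTL5 and MYOF, at 1.80 and 1.78, stand highest among the genes labelled in the plot.

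The genes with the lowest values had varied roles. ATP2A3, which encodes the calcium pump SERCA3 of the endoplasmic reticulum, had 141, 22 and 45 counts. Its log2 fold change of -2.59 was the lowest among called genes whose counts in siCont and siERRG2 averaged 50 or more, with a ratio interval of 0.0937 to 0.243. PLCH2, a phospholipase C of neurons that releases calcium-mobilising inositol phosphate, had 242, 51 and 95 (log2 fold change -2.22 in siERRG2). LDB3, a protein of the muscle Z-disc, had 959, 216 and 481 counts (log2 fold change -2.16). In each of these the siERRG3 library lay between siERRG2 and siCont.

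CNTN2, an axonal adhesion molecule of the contactin family, had the most counts among the 15 lowest genes. It had 1428, 416 and 689 counts (log2 fold changes -1.79 and -1.07, ratio interval in siERRG2 0.258 to 0.321). ARHGEF17, a guanine nucleotide exchange factor, had 779, 255 and 506 counts (log2 fold change -1.62 in siERRG2). ZCCHC24, a zinc finger protein, stood at 454, 154 and 152 counts, the same level in both ESRRG libraries (log2 fold changes -1.56 and -1.59). APOBEC2, a muscle member of the cytidine deaminase family, NXPH3, a secreted ligand of neurexins, DAND5, an extracellular antagonist of Nodal and BMP, and DTX1, a ubiquitin ligase of the Notch pathway, lay between -1.94 and -1.67 in siERRG2 and between -0.73 and -0.42 in siERRG3.

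NAP1L5, a nucleosome assembly protein of an imprinted gene, departed from that order. Its counts were 272, 100 and 312, so it was called lower in siERRG2 (-1.44) and stood at 0.17 in siERRG3. SERPINA1, the protease inhibitor alpha-1-antitrypsin, had 86, 31 and 45 counts (-1.43). The other 2 of the 15 lowest names are uncertain because reads can be shared. ARPC4-TTLL3, a readthrough of neighbouring genes, had 90, 29 and 102 counts, while ARPC4 itself had 1818, 2083 and 2253. SULT1A3 had 108, 39 and 66 counts, and its near-identical copy SULT1A4 went from 80 counts in siCont to 124 in siERRG2.

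The genes with the highest values were as varied. SYTL5, a Rab27 effector of vesicle traffic, had 49, 177 and 84 counts (log2 fold changes 1.80 and 0.73). LRRC17, a secreted leucine-rich repeat protein, had 325, 824 and 349 counts, which is 1.32 in siERRG2 and 0.08 in siERRG3. SCG2, the granin secretogranin II of dense-core granules, had 234, 558 and 257 counts (1.23 and 0.11). For LRRC17 and SCG2 the siERRG3 library stayed near the control while siERRG2 stood apart from both.

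Among the same 15 highest genes were also PLAU, the urokinase plasminogen activator (62, 156 and 101 counts, 1.29), CMTM7, a membrane protein (125, 307 and 195 counts, 1.27), DNAJC15, a mitochondrial co-chaperone (36, 85 and 82 counts, 1.18), and CHAC1, which degrades glutathione under ATF4 control (105, 235 and 284 counts, 1.13). The first-ranked name, LOC102724219, is an uncharacterised locus with 51, 226 and 106 counts (2.09). The log2 fold change of KIAA2012 (1.29) is uncertain, since its extent in the deposited table overlaps FZD7, a Wnt receptor with 1094, 2362 and 1142 counts, and its own counts were 41, 104 and 115.

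Several of the highest genes were below the control in siERRG3. MYOF, a membrane-repair protein of the ferlin family, had 180, 630 and 88 counts (log2 fold changes 1.78 and -1.04, ratio interval in siERRG2 2.93 to 4.11). NOV, the matricellular protein CCN3, had 100, 341 and 65 counts (1.73 and -0.63). TFPI, the tissue factor pathway inhibitor, FGFRL1, a receptor of the FGF family without a kinase domain, and the chemokine CXCL14 stood at 1.35, 1.33 and 1.12 in siERRG2 against -0.41, -0.65 and -0.37 in siERRG3. In siERRG3 the value of TFPI was not called.

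**Figure D2:**
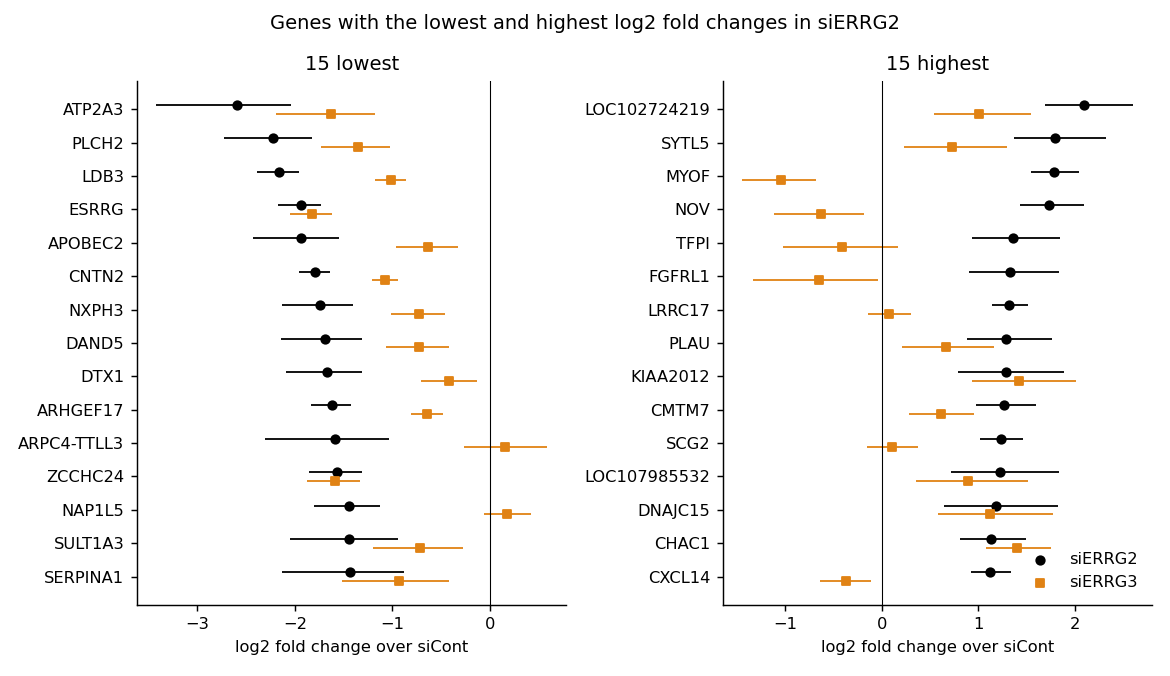
Points give the log2 fold change over siCont in siERRG2 (black circles) and siERRG3 (orange squares) for the 15 lowest and 15 highest called genes whose counts in siCont and siERRG2 averaged 50 or more; lines are 95% counting intervals of the scaled ratio. ESRRG and ZCCHC24 lie at nearly the same place in both libraries, most other low genes are lower in siERRG2, and MYOF, NOV, FGFRL1 and CXCL14 lie on opposite sides of 0. The genes were picked by siERRG2, so less extreme values in siERRG3 follow in part from that choice.

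Below a mean of 50 counts, fold changes were larger and less certain. The extremes there were chosen after their values were seen. CEMP1 had 60, 0 and 62 counts and GALNT4 had 0, 79 and 0 counts. GOLGA8R (44, 0 and 12) and the readthroughs TMED7-TICAM2 (1, 33 and 0) and CORO7-PAM16 (0, 25 and 0) belong to families or loci whose reads can be divided between gene models. Whether this also holds for CEMP1 and GALNT4 was not tested, so all of these are given as counts without a fold.

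Ranked by counts rather than by fold, the largest differences lay in other genes. PTMA, the chromatin-associated protein prothymosin alpha, had the largest loss, with 47544, 31997 and 51146 counts (log2 fold change -0.59). It has many processed copies in the genome, which may share its reads. CALR, the calcium-binding chaperone calreticulin, had 25734, 12749 and 21686 counts, a log2 fold change of -1.03 in siERRG2. The cytoskeletal protein gene MAP1B (27147, 17388 and 22173 counts, -0.66) and IGFBP5, a secreted binding protein for insulin-like growth factors (14309, 6425 and 10799 counts, -1.17), followed. In siERRG3 these 4 genes lay between -0.43 and 0.08.

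INSM1, a zinc finger transcription factor of the neuroendocrine lineage, had 10359, 5279 and 9168 counts. That is a log2 fold change of -0.99 (ratio interval 0.487 to 0.521) against -0.20 in siERRG3. The growth factor HDGF, the lipid desaturase SCD, the elongation factor EEF1A2 and the creatine kinase CKB were lower by 0.35 to 0.46 on the log2 scale. PIK3R2, a regulatory subunit of phosphoinositide 3-kinase, was the member of this group that lay lower in siERRG3 than in siERRG2 (12172, 7258 and 4628 counts, -0.76 and -1.42).

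The largest gains were smaller. EIF4G2, a translation initiation factor, had 23137, 30656 and 22974 counts (log2 fold change 0.39 in siERRG2 and -0.03 in siERRG3). ITGB1, the β1 integrin subunit that pairs with most matrix-binding α subunits, had 7527, 11108 and 5453 counts (0.54 and -0.49). CDKN1A, the cyclin-dependent kinase inhibitor p21, had 6799, 9349 and 5507 counts (0.44 and -0.33). ITGB1 and CDKN1A were thus above the control in siERRG2 and below it in siERRG3. ID3, an inhibitor of helix-loop-helix factors, and JUND, an AP-1 subunit, were at 0.54 and 0.57 in siERRG2 and at 0.18 and 0.49 in siERRG3, where ID3 was not called.

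The pathway for which the receptor is named as a regulator of oxidative metabolism moved little as a whole. Of 72 subunits of the respiratory chain, all of which passed the count filter, 5 were called lower and 1 higher (6.94% and 1.39%, against 12.8% and 10.2% of all genes), with a median log2 fold change of -0.03. The exception in size was NDUFA9, an accessory subunit of complex I. NDUFA9 had 2416, 944 and 2194 counts, a log2 fold change of -1.37 with a ratio interval of 0.358 to 0.417, against -0.16 in siERRG3. The other members called lower, ATP5PD of ATP synthase, NDUFS4 and NDUFA5 of complex I and UQCRC2 of complex III, lay between -0.38 and -0.29.

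Enzymes that feed the chain were examined next. In the TCA cycle list 7 of 30 genes were called lower and 1 higher (23.3% and 3.33%), with a median of -0.12. Over all genes the shares were 12.8% and 10.2%. OGDHL, a relative of the 2-oxoglutarate dehydrogenase OGDH, had 548, 346 and 253 counts (-0.68 in siERRG2). IDH1, which makes NADPH in the cytosol, was the gene called higher, with 1594, 2208 and 1595 counts (0.45). In fatty acid oxidation 4 of 20 genes were called lower and 0 higher (20% and 0%), with a median of -0.09. These were ACADL and ACADS, acyl-CoA dehydrogenases, CPT1B, the muscle-type carnitine palmitoyltransferase, and ECHS1, at -0.59, -0.58, -0.53 and -0.39. Among the coactivators PPARGC1B was called lower (687, 536 and 719 counts, -0.37), NCOA1 was called lower (813, 499 and 740 counts, -0.72), and PPARGC1A was called higher (149, 192 and 133 counts, 0.35).

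Promoters were searched for the receptor's element on both strands in RefSeq windows (GRCh38.p14) that run from 250 bases before the start of a gene to 50 after it. The full 9-base TCAAGGTCA stood in 4 of 1421 promoters of genes called lower (0.281%) and in 2 of 1160 of genes called higher (0.172%), against 0.177% of promoters of all genes that passed the count filter. The 7-base core AAGGTCA, which the longer form contains, stood in 2.96%, 2.67% and 2.54%. The 6 windows with the full element are printed because they are the called genes whose promoter holds it, a choice made after the calls were known, and each is shown in gene orientation with 10 bases either side and the element, or its reverse complement TGACCTTGA, in capitals.
SDHD, chr11:112086874-112086902, + strand: ggttggtggaTGACCTTGAgccctcagga
DAND5, chr19:12969595-12969623, + strand: cgactgctagTGACCTTGAgcccagtccg
PSMC3IP, chr17:42578001-42578029, - strand: tagacttaatTCAAGGTCAccagtgctca
CREBZF, chr11:85683032-85683060, - strand: ataatataggTGACCTTGAaaggcaggct
AK3, chr9:4741938-4741966, - strand: ccctctcggcTCAAGGTCActccctgtga
EPDR1, chr7:37920463-37920491, + strand: tttcctatctTGACCTTGAacttgcccct

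The first 4 of these genes were called lower and the last 2 higher. SDHD, a membrane anchor of complex II, had 2130, 1714 and 1553 counts (-0.33 and -0.48), and its element lies 11 bases after the annotated start. DAND5 had 215, 66 and 131 counts (-1.69 and -0.73), with the element 29 bases after the start. PSMC3IP, a recombination factor, had 329, 198 and 803 counts (-0.74 and 1.26), and CREBZF, a leucine zipper protein, had 1798, 1397 and 2177 (-0.38 and 0.25). In these promoters, then, SDHD and DAND5 were called lower in both libraries, and PSMC3IP was called lower in siERRG2 and higher in siERRG3. CREBZF was not called in siERRG3. AK3, a mitochondrial adenylate kinase, was at 0.41 and EPDR1 at 0.41 in siERRG2. A match of letters in these windows is a description and does not show that the receptor was bound there.

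The extracellular matrix was split between lower and higher members. Of 21 collagen genes that passed the count filter, of 37 measured, 8 were called lower and 3 higher (38.1% and 14.3%), with a median of -0.39. Over all genes the shares were 12.8% and 10.2%. COL6A1, a chain of the microfibrillar collagen VI, had 376, 186 and 131 counts (-1.02 and -1.53). COL9A3, COL9A2, COL27A1 and COL4A4 were lower by 0.53 to 0.85 on the log2 scale in siERRG2, and COL9A2 was higher in siERRG3 (96, 62 and 205 counts). The summed CPM of the collagen list was nonetheless 371 in siCont and 376 in siERRG2, and COL1A2, a chain of the fibrillar collagen I, had 2043, 2896 and 2505 counts (0.49).

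Matrix glycoproteins and proteoglycans showed the same division. Of 39 that passed, 10 were called lower and 7 higher (25.6% and 17.9%, against 12.8% and 10.2% of all genes), with a median of -0.18. Their summed CPM was 2346 in siCont and 1664 in siERRG2, where IGFBP5 made up much of the loss. The small proteoglycan BGN had 1304, 745 and 1014 counts (-0.82) and the testican SPOCK1 had 177, 89 and 172 (-0.99). In the other direction TNC, the anti-adhesive glycoprotein tenascin C, had 894, 1738 and 1056 counts (0.94), and LUM, the collagen-binding proteoglycan lumican, had 83, 183 and 58 (1.11). Laminins and basement membrane genes had 5 of 16 lower and 1 higher (31.25% and 6.25%). LAMA5 was at -0.56 and the heparan sulphate proteoglycan HSPG2 at -0.48, while LAMC1, the γ1 chain shared by most laminins, had 3667, 4759 and 3297 counts (0.36).

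The enzymes that finish collagen were divided in a similar way. LOXL1, a lysyl oxidase relative needed for elastic fibres, had 2178, 1108 and 1750 counts (-0.99 in siERRG2). LOX itself had 1528, 2312 and 1255 counts (0.58), and the prolyl 4-hydroxylase subunits P4HA1 (484, 746 and 519 counts, 0.61) and P4HA2 (299, 520 and 344 counts, 0.78) were also called higher. Among the 35 focal adhesion genes that passed, 6 were called lower and 1 higher (17.1% and 2.86%, against 12.8% and 10.2% of all genes). The lower members included the syndecan SDC3 (1464, 730 and 803 counts, -1.02), the actin-binding proteins VASP (-0.70) and TNS1 (-0.64) and the kinase SRC (-0.48). Of 18 integrins, 2 were lower and 2 higher (11.1% each). Their summed CPM was 519 in siCont and 700 in siERRG2, in which ITGB1 was the largest part.

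**Figure D3:**
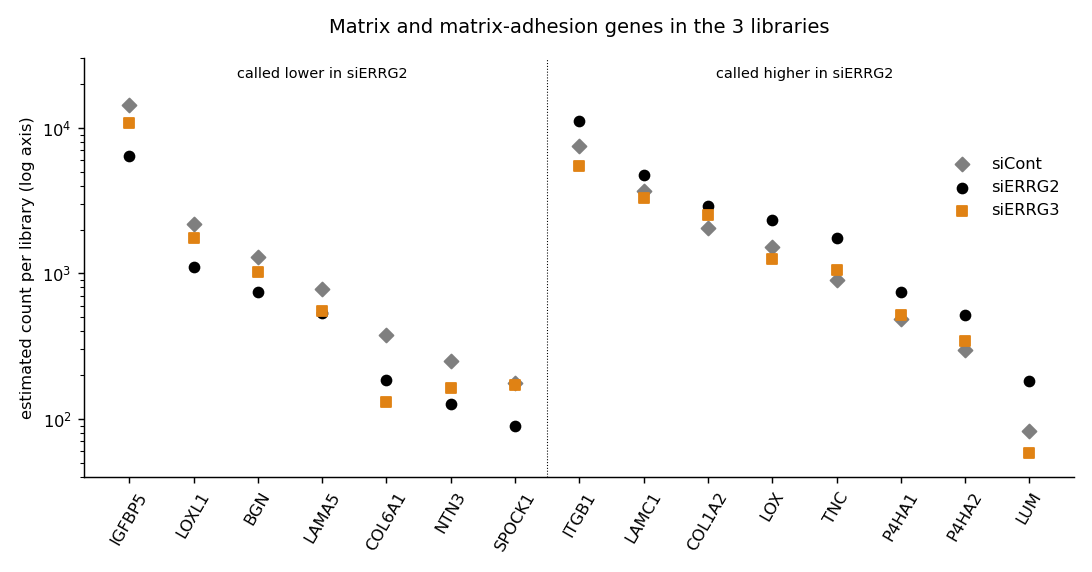
Estimated counts per library (log axis) of 15 matrix and matrix-adhesion genes in siCont (grey diamonds), siERRG2 (black circles) and siERRG3 (orange squares). The 7 genes on the left, from IGFBP5 to SPOCK1, have fewer counts in siERRG2 than in siCont, and the 8 on the right, from ITGB1 to LUM, have more; for SPOCK1, P4HA1 and P4HA2 the siERRG3 point lies close to siCont.

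Since several matrix genes also mark fibroblasts, markers of other cell types were listed. Of 10 fibroblast markers 7 passed. LUM, POSTN and COL1A2 were called higher in siERRG2 and COL1A1 lower (42.9% and 14.3%, against 10.2% and 12.8% of all genes). The summed CPM of the list was 141, 192 and 162, and no marker was at 0 in any library, although DCN had 8 counts in each and COL3A1 17 to 22. Of 9 endothelial and 10 immune markers, 5 and 4 passed, of which 4 and 3 averaged under 50 counts. In siERRG2 0 of these were called, and VWF and KDR, which define endothelium, had at most 1 count. CDH5, VE-cadherin of the same endothelial list, had 1456, 1623 and 585 counts, which is 73.8 of the list's 77.3 summed CPM in siCont. It was not called in siERRG2 (0.14) and was called lower in siERRG3 (-1.34). All 3 samples were cultures of the H128 line, so the design mixed in no fibroblasts, endothelium or immune cells. These lists are therefore read as genes of the cultures and not as cell types. Whether other cells were present, or had a part in the matrix values, was not tested.

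Lower values were also frequent among genes of neuronal excitability. Of 72 ion channel genes that passed, of 102 measured, 22 were called lower and 6 higher (30.6% and 8.33%). Over all genes the shares were 12.8% and 10.2%. Calcium channel genes were among the lower members. CACNA2D2, an auxiliary subunit, had 3159, 1490 and 1038 counts (-1.10 and -1.63), CACNA1H, a T-type pore, had 166, 80 and 103 (-1.05), and CACNA1D, an L-type pore, had 254, 158 and 217 (-0.69). The potassium channels KCNH6 and KCNK3 were at -1.27 and -0.96. In the calcium pump and phospholipase C list, 9 of 38 were called lower and 5 higher (23.7% and 13.2%). Beside ATP2A3 and PLCH2, the plasma membrane pumps ATP2B3 and ATP2B2 were at -0.82 and -0.77 and the phospholipase PLCG1 had 2540, 1438 and 2253 counts (-0.84).

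Neuroendocrine secretory genes moved in both directions, with a median of -0.05. Of 45 that passed, 13 were called lower and 9 higher (28.9% and 20%, against 12.8% and 10.2% of all genes). The prohormone convertase PCSK2 (176, 93 and 151 counts, -0.92) and the exocytosis syntaxin STX1A (5929, 3714 and 4702 counts, -0.69) were lower. SCG2, the neuropeptide precursor NTS (115, 192 and 132 counts, 0.71) and SNAP25, the synaptic partner of syntaxin (3562, 5649 and 2297 counts, 0.65), were higher. STX1A and SNAP25, which pair in the same fusion complex, thus lay on opposite sides of the control. CPE, the carboxypeptidase that trims prohormones, had 9726, 12265 and 7256 counts (0.32 and -0.45).

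Of 31 lineage transcription factors that passed, 4 were called lower and 2 higher, and the 12.9% called lower is close to the 12.8% of all genes. Beside INSM1 these were MYT1 and ST18, zinc finger factors of one family, with 793, 317 and 650 counts (-1.33) and 1920, 1370 and 1525 counts (-0.50), and NEUROD2, a neurogenic helix-loop-helix factor, with 743, 368 and 964 (-1.03). NEUROD2 was above the control in siERRG3 (0.35). Over the 8 neuroendocrine markers, 2 were called lower and 0 higher (25% and 0%), and the median was -0.09. The other nuclear receptors had 8 of 30 lower and 4 higher (26.7% and 13.3%, against 12.8% and 10.2% of all genes). The retinoid X receptors RXRG (1017, 680 and 889 counts) and RXRA (1468, 1011 and 1196) were at -0.60 and -0.55. In the Notch list, 9 of 38 were called lower and 3 higher (23.7% and 7.89%), DTX1 being the lowest. The γ-secretase subunits APH1B (-0.86) and PSEN2 (-0.66) were also lower.

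Cell cycle lists differed in their share of lower calls. In the Hallmark E2F targets, a set named in the deposited table, 37 of 200 genes were called lower and 7 higher (18.5% and 3.50%), with a median of -0.05. TIMELESS, a protein of the replication fork, had 2388, 1255 and 1858 counts (-0.94), and TRIP13, a mitotic checkpoint ATPase, had 2587, 1530 and 1382 (-0.77). CCNB2, a mitotic cyclin, had 2732, 1672 and 2015 counts (-0.72). The G2M checkpoint set had 27 of 197 lower and 9 higher (13.7% and 4.57%, against 12.8% and 10.2% of all genes). Lower calls made up 15.8% of 57 DNA replication genes, 12.7% of 79 mitotic kinesin, kinetochore and spindle genes and 5 of the 50 genes of homologous recombination, Fanconi and checkpoint pathways. In siERRG3 the E2F targets had 35 lower and 27 higher calls (17.5% and 13.5%). The G2M checkpoint set had 33 lower and 22 higher there (16.8% and 11.2%). Over all genes in siERRG3 the shares were 19.9% and 17.1%. MYBL2, a proliferation transcription factor, was among the members that stood apart in siERRG2 (9794, 6405 and 10357 counts, -0.63 and 0.06), and CENPB, a centromere protein, had 3713, 2027 and 4940 (-0.89 and 0.39). Tubulins had 5 of 20 lower and 1 higher (25% and 5%), TUBB3, the neuronal β-tubulin, with 6699, 4935 and 5134 counts (-0.46).

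Of 33 genes of the unfolded protein response and the endoplasmic reticulum chaperones, 7 were called lower and 2 higher (21.2% and 6.06%, against 12.8% and 10.2% of all genes), with a median of -0.09. The broader Hallmark set of the unfolded protein response lay the other way, with 9 of 110 lower and 16 higher (8.18% and 14.5%) and a median of 0.03. Beside CALR the 7 included the translocon subunit SEC61B (1076, 569 and 1409 counts, -0.93), HERPUD1 (843, 590 and 779 counts, -0.53) and the chaperone HSPA5 (15312, 11421 and 12181 counts, -0.44). SEC61B lay above the control in siERRG3 (0.36). The ATF4 and amino acid list had 5 of 52 lower and 9 higher (9.62% and 17.3%). It held CHAC1 and the stress factor ATF3 (271, 417 and 510 counts, 0.60) on the higher side and the glutamine transporter SLC1A5 (3409, 1987 and 4410 counts, -0.79) and the phosphatase regulator PPP1R15A (304, 200 and 453 counts, -0.62) on the lower.

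Apart from the fibroblast markers and the cancer-testis antigens (5 of 15 higher, among them MAGEA paralogs that can share reads), the lists with the largest share of higher calls were those of p53, immediate early, interferon and apoptosis genes. Among 31 p53-regulated genes, 13 were called higher and 2 lower (41.9% and 6.45%, against 10.2% and 12.8% of all genes), with a median of 0.24. Their differences were modest in size. CDKN1A stood at 0.44, the BH3 proteins BBC3 (53, 84 and 54 counts) and PMAIP1 (594, 842 and 1006 counts) at 0.63 and 0.49, and the kinase PLK3 at 0.52, while GADD45G had 433, 309 and 744 counts (-0.50). The count of p53-regulated genes called higher depends on where 0 is set: it was 8 when log2 fold changes were centred within bins of transcript GC content, a choice made after the data were seen. The broader Hallmark p53 pathway had 28 of 175 called higher and 23 lower (16.0% and 13.1%), closer to all genes.

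Of 28 immediate early genes, 11 were called higher and 4 lower (39.3% and 14.3%, against 10.2% and 12.8% of all genes), with a median of 0.24. That median was 0.13 with genes under a mean of 50 counts left out, which removes 8 of the 28. The dual-specificity phosphatases DUSP1, DUSP5 and DUSP6, which switch off MAP kinases, had 392, 652 and 423 counts, 117, 203 and 238 counts, and 85, 147 and 120 counts (0.71, 0.77 and 0.76). The nuclear receptor NR4A2 was at 0.59. In the list of apoptosis genes around the BCL2 family 7 of 31 were higher and 2 lower (22.6% and 6.45%). BMF, a BH3 protein, was among the lower (150, 82 and 181 counts, -0.87).

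Interferon and double-stranded RNA sensing genes had 10 of 32 called higher and 2 lower (31.3% and 6.25%), with a median of 0.20. The RNA sensor DDX58 had 82, 147 and 81 counts (0.81 and -0.04), the interferon-induced protease USP18 had 70, 125 and 123 (0.80 and 0.77), and IFI6 stood at 0.80 and 0.45. All of these had low counts, and 15 of the 32 had a mean under 50. The Hallmark interferon sets lay closer to the 10.2% higher and 12.8% lower of all genes. The interferon alpha set had 9 of 72 higher and 3 lower (12.5% and 4.17%), with a median of 0.09. The interferon gamma set had 22 of 145 higher and 9 lower (15.2% and 6.21%), with a median of 0.06. Genes of antigen presentation lay the same way, with 4 of 19 higher and 1 lower (21.1% and 5.26%). TAPBP (367, 583 and 392 counts, 0.65) and B2M (4218, 5263 and 4464 counts, 0.30) were the better counted. Of the Hallmark sets, TNFα signalling via NF-κB had the highest median, 0.12, with 33 of 158 genes called higher and 18 lower (20.9% and 11.4%). Protein secretion followed with 19 of 94 higher and 6 lower (20.2% and 6.38%). In siERRG3 the protein secretion set had 6 higher and 21 lower calls (6.38% and 22.3%, against 17.1% and 19.9% of all genes there). VAMP3, a vesicle SNARE of recycling endosomes, was an example in protein secretion (1653, 2569 and 1630 counts, 0.62 and -0.04).

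The cytosolic ribosomal proteins marked the other end of the scale. Of 79, 0 were called lower and 1 higher, RPS26 (6383, 8096 and 8080 counts, 0.33), and the median was 0.05. Mitochondrial ribosomal proteins had 5 of 78 lower and 7 higher (6.41% and 8.97%, against 12.8% and 10.2% of all genes). Genes of SWI/SNF complexes had 2 of 28 lower and 1 higher (7.14% and 3.57%).

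Calls in siERRG2 followed the base composition of the transcripts. Genes that averaged 50 or more counts were ordered by the GC content of their longest protein-coding transcript (GENCODE, GRCh37) and cut into 5 groups of 2189. In the group of lowest GC content 7.90% were called lower, and in the group of highest GC content 21.8%. Higher calls ran the other way, from 15.03% to 8.63%. In siERRG3 the shares called lower were 23.02% and 24.2%. The shift in level was small: the median log2 fold change in siERRG2 was 0.06 in the group of lowest GC content and -0.06 in that of highest. By chromosome, 18.2% of genes on chromosome 22 were called lower and 3.72% higher, and on chromosome 4 the shares were 9.73% and 16.2%. These chromosomes had the most extreme shares and were picked after the values were seen. Over all genes that averaged 50 or more counts the shares were 13.6% and 11.3%, and on chromosome 17 they were 17.9% and 8.96%.

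Several of the lists above are rich in GC. Of the 10 collagens with that many counts and a known transcript, 8 lay in the group of highest GC content, and 6 of those 8 were called lower, against 21.8% of all genes in that group. Of 51 ion channels, 16 lay there, with 10 lower (62.5%), and of the 35 in the other groups 9 were lower (25.7%, against 11.6% of all genes). The E2F targets did not share this trait: 184 of 198 lay outside that group, and 34 of the 184 were called lower (18.5%). For the focal adhesion genes, 5 of 11 in the group of highest GC content were lower and 1 of 20 elsewhere, and for the matrix glycoproteins 5 of 8 and 4 of 12. For laminins and basement membrane genes the counts were 5 of 6 and 0 of 4. The part of base composition in these differences was not tested.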

How the data were processed

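RNA of H128 cells was sequenced 48 h after transfection, with 1 library per siRNA. The study's methods name BWA and Bowtie 2 on GRCh37/hg19, but the deposited coordinates fit GRCh38; the submitters' processing notes name TopHat2, HTSeq and DESeq2. The authors deposited estimated counts (expected counts) for each gene, not normalized, of which 54.5% to 54.9% were whole numbers in siCont and siERRG2, and a length-scaled value of FPKM type whose unit the table does not name. Their own log2 ratios, p-values and false discovery rates between libraries were not used, and 0 columns of other samples were present. Reads that fit several genes were divided by the authors' counting, so copies and readthrough genes are uncertain.

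Counts were rounded, genes that reached 10 counts in some library were kept, and libraries were scaled by TMM (edgeR 4.0.16). Log2 fold changes are differences of log2 CPM with a prior count of 2. The 95% interval of the ratio of scaled counts is exact (binomial, Clopper-Pearson), from SciPy 1.17.1; it compares 2 libraries, not 2 conditions. Named genes were the ESRRG family, the 15 lowest and 15 highest called genes averaging 50 or more counts, the 10 largest CPM losses and gains, and up to 5 called genes with the largest fold per list or Hallmark set described. The comparison, the 48 lists and these rules were chosen with earlier results of these data known. Transcript GC content was available for 95.2% of the genes that passed, and a promoter for 80.5%.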

Additional observations from a re-analysis of the deposited data

Results flagged for a closer look

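These genes, out of the 50 named for the size of their difference in siERRG2, had calls of opposite direction in the 2 ESRRG libraries; the difference between the libraries was not tested, since each has 1 sample and both share siCont. MYOF was at 1.78 in siERRG2 and -1.04 in siERRG3, NOV at 1.73 and -0.63, FGFRL1 at 1.33 and -0.65, and CXCL14 at 1.12 and -0.37 (log2 fold changes over siCont). Among abundant genes, ITGB1 was at 0.54 and -0.49, CDKN1A at 0.44 and -0.33, JTB, a mitotic membrane protein, at 0.37 and -0.31, FABP3, a fatty acid carrier, at 0.34 and -0.29, and CPE at 0.32 and -0.45. All 9 were called higher in siERRG2 and lower in siERRG3. Of all genes that passed the count filter, 19.9% were called lower in siERRG3. The share of opposite calls over all genes is not given, so 9 of 50 cannot be read as unusual.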

How the results depend on the processing

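No paired analysis was possible because each condition had 1 library, and no replicate could be left out for the same reason. The count of genes called higher, 1428 as reported, was 2295 with the 1.2-fold size alone, 2375 with the deposited FPKM values (pseudocount 0.1) and that size alone, and 131 at 2-fold; the count called lower, 1796, was 270 at 2-fold and 2689 with the 1.2-fold size alone. These alternatives differ in the size or interval that they ask for. Under the other scalings, priors, filters and a 99% interval, lower calls ran from 1515 to 1816 and higher calls from 1211 to 1554. The log2 fold change of ESRRG ran from -2.00 to -1.88. Centring log2 fold changes within 20 bins of transcript GC content, chosen after the data were seen, gave 1671 lower and 1280 higher calls among 13351 genes with a GC value, where the uncentred calls were 1726 and 1354. Of list medians, 472 values across the alternatives moved by less than 0.1 and 8 by more, among them laminins (-0.37 at a mean of at least 50 counts), collagens (-0.53 at that mean and -0.24 with no filter), fibroblast markers (0.17 with no filter) and immediate early genes (0.13 at that mean). Of the counts of called members per list, 69 moved by over 1.5 times and 891 did not; with FPKM values and the 1.2-fold size alone, ion channels had 14 higher calls in place of 6 and matrix glycoproteins 16 lower calls in place of 10. Of single genes' log2 fold changes, 22 values left their counting interval and 2218 stayed within it. No call named here changed direction. Counting error limits genes under a mean of 50 counts, and spread between cultures cannot be judged from 1 library.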
